A study of Mus musculus with 5 samples.

Results

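The peaks described here are the intergenic ZFP24 sites found in differentiated mouse oligodendrocytes (OLG) and not in their progenitors (OPC). ZFP24, also named ZFP191 and in humans ZNF24, is a zinc finger transcription factor, and the sites come from chromatin immunoprecipitation followed by sequencing (ChIP-seq). They were chosen by the positions in the deposited peak lists: an OLG peak was a member when it shared no base with any OPC peak, its centre lay over 1 kb from every protein-coding transcript start, and it lay inside no protein-coding gene. This gave 321 of 1752 OLG peaks. The rest of the OLG list held 690 OLG-only promoter peaks (centre within 1 kb of a start), 487 OLG-only gene-body peaks and peaks shared with the OPC list, 46 of them intergenic. The same rule with the lists exchanged gave 1316 OPC-only intergenic peaks of 4643 OPC peaks.

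The study compared ZFP24 binding in the 2 stages of the lineage. All cells came from brains of C57BL/6 mice at postnatal day 7, isolated by immunopanning, a selection on antibody-coated dishes. The 5 libraries were 1 each of wild-type OLG, Zfp191-null OLG, wild-type OPC, Zfp191-null OPC, and an input pooled over wild-type and null cells of both stages. The OLG were OPC kept for 5 days without PDGF and with 40 ng/ml triiodothyronine, a thyroid hormone. An antibody against ZNF24 was used for the 4 precipitations. Both peak lists are labelled with the wild-type and the null library of their stage, and no list gives reads per library, so signal in null cells or input was not analysed here and the depth is unknown. The lists hold no score, and cell type markers could not be checked from peak positions. With 1 library a group, each test compares peaks of 2 lists or windows of 1 list and not replicated conditions. Intervals are exact Clopper-Pearson 95% intervals for shares and exact conditional intervals for odds ratios, and they cover counting error over peaks only.

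OPC are the dividing cells that give rise to oligodendrocytes, which wrap axons in myelin. Mice without ZFP24 have oligodendrocytes that fail to make normal myelin in the central nervous system. ZNF24, the human protein, is known to bind tandem TCAT repeats. Sites far from gene starts can be enhancers, stretches of DNA that act on genes at a distance, and the nearest gene on the map need not be the one acted on.

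Of the 321 peaks, 6 held a tandem TCAT tract of at least 12 bases in the 200 bp around their centre. The tracts of 5 of these peaks are printed first because they carry the repeat that the protein is known to bind. They stand in peaks named by their nearest gene: Tipin (chr9:64277928-64278148, which encodes a replication fork protein), Ptk2 (chr15:73466132-73466352, focal adhesion kinase), Mtmr3 (chr11:4604339-4604559, a phosphoinositide phosphatase), C1galt1c1 (chrX:38650465-38650685, a chaperone for O-glycan synthesis) and Rtl1 (chr12:109566799-109567019, an imprinted gene derived from a retrotransposon). All sequences are from GRCm38.p6 (mm10), 5′ to 3′. Capitals mark the tract and the 12 bases to each side are in lower case. The C1galt1c1 tract is on the minus strand.
Tipin tract: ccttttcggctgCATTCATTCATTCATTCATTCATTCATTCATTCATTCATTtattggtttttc
Ptk2 tract: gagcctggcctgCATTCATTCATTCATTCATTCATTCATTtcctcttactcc
Mtmr3 tract: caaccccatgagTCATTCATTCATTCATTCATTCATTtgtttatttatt
C1galt1c1 tract: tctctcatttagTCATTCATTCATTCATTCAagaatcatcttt
Rtl1 tract: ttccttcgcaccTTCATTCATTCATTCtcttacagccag

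The other peaks had no such tract in that window. Searched over their whole width, 8 peaks held one. Of the peaks with no tract in the window, 4 are printed whole, each for a feature that the results turn on. Capitals mark CpG dinucleotides, plus strand. The peak at chr3:122293337-122293557 had the most CpG of all members, chr8:111399352-111399572 is the nearest to a myelin gene, chr3:34642171-34642391 is the nearest to a lineage regulator, and chr14:25276891-25277111 is the closest to an OPC peak. That OPC peak, chr14:25277117-25277325, is printed under it for comparison.
Dnttip2 peak: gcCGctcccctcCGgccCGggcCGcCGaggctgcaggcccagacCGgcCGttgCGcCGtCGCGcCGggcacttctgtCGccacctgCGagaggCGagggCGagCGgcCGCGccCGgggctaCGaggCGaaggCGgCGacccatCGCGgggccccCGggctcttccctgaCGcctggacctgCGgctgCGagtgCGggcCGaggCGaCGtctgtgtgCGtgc
Fa2h peak: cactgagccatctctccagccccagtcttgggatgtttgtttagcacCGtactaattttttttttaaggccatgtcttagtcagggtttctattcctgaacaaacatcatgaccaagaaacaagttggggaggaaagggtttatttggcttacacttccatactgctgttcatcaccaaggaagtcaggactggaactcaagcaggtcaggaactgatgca
Sox2 peak: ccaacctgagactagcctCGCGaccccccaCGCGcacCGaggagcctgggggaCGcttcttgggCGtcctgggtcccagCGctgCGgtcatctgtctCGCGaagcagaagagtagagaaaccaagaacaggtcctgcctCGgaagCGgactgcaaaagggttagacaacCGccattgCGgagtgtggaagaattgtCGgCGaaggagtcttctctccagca
Zmiz1 peak: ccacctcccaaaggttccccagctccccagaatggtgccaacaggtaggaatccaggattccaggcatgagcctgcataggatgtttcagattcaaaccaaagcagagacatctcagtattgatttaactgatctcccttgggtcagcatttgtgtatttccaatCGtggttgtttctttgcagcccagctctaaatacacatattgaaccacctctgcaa
OPC peak beside it: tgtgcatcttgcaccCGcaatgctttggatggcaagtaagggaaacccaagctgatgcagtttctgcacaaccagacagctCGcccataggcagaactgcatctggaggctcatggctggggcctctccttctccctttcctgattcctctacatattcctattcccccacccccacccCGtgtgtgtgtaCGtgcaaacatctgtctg

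Oligodendrocyte-only intergenic peaks lay closer to gene starts than their OPC counterparts. The distance from the peak centre to the nearest protein-coding start had a median of 26729 bp in the OLG-only intergenic peaks (quartiles 9405 and 76081 bp), against 46966.5 bp in the OPC-only intergenic peaks (quartiles 16220.5 and 148002 bp). Over 50 kb from a start were 115 of 321 OLG-only intergenic peaks (35.8%, interval 30.6 to 41.3%) and 633 of 1316 OPC-only intergenic peaks (48.1%, 45.4 to 50.8%). The rule used distance to these starts, with the same 1 kb limit for both classes, so these shares are a description with no test. With starts of every annotated gene type, 11.2% of the OLG-only and 15.2% of the OPC-only intergenic peaks lay over 50 kb away. These starts include the ones that the rule used, so this too is a description (odds ratio 0.705, interval 0.469 to 1.04).

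**Figure D1:**
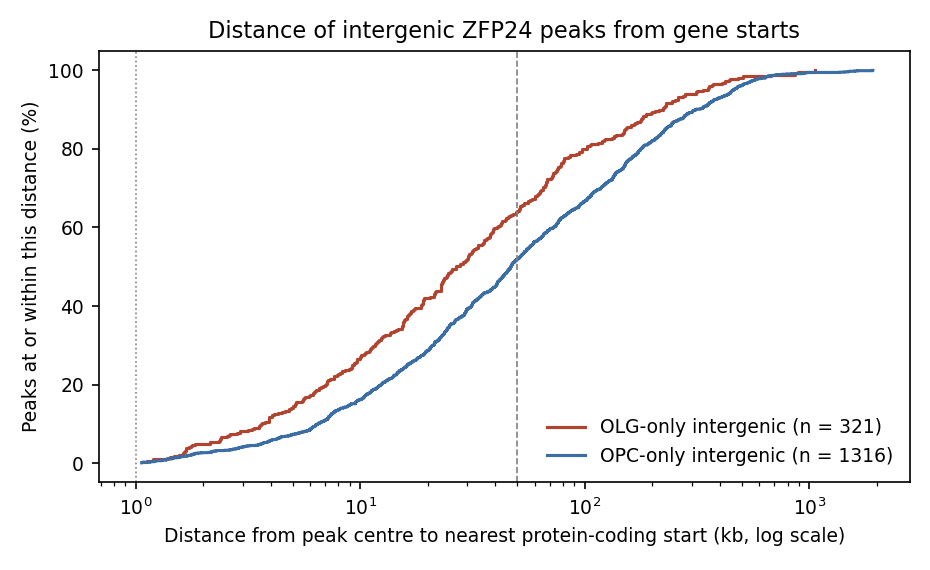
Cumulative share of peaks (%) by distance from peak centre to the nearest protein-coding start (kb, log axis), for 321 OLG-only intergenic peaks (red) and 1316 OPC-only intergenic peaks (blue). The dotted line is the 1 kb limit of the rule and the dashed line 50 kb, past which 35.8% of the OLG-only and 48.1% of the OPC-only peaks lie.

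The nearest genes were 309 in number, and 216 peaks (67.3%) lay upstream of the nearest start. The rule left out peaks inside protein-coding genes, which lie downstream of their starts. An upstream excess is therefore built into this share, and it says nothing about a preferred side. The closest to a start were near Sim2, a developmental transcription factor, at 1076 bp, Eomes, a T-box factor, at 1130 bp, Champ1, a protein of kinetochore-microtubule attachment, at 1199 bp, Cdc20, an activator of the anaphase-promoting complex, at 1392 bp, and Rprd2, a protein associated with RNA polymerase II, at 1420 bp. The Sim2 peak was 11 bp from the start of a non-coding gene, Gm49620, and lay inside it. The farthest lay 1061159 bp from Nsun3, 892238 bp from Fbxo33, 865156 bp from Tmem182, 862480 bp from Tlr4 and 675091 bp from Rpia. The Rpia peak is in the immunoglobulin kappa locus, 479 bp from the start of Igkv8-30, a gene type that the rule did not count as protein-coding. On the other side of the 1 kb limit, the OLG-only peaks just inside it and outside genes were near Etnk2 (949 bp), Serinc3 (885 bp) and Mast1 (859 bp).

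Most nearest genes had 1 such peak, and 12 had 2: Kcnrg, Lrrc4b, Nectin1, Phb, Pmfbp1, Pou3f2, Ppara, Slc30a5, Tob1, Tshz3, Tulp1 and Zfp957. Only 3 pairs of these peaks lay within 10 kb of each other. They were 1261 bp apart near Tulp1, a photoreceptor gene, 1308 bp apart near Zfp957, a zinc finger gene, and 8602 bp apart near Lrrc4b, which encodes a synaptic adhesion protein. Another OLG peak of any class was within 10 kb of 14 members (4.36%). The peaks were spread over 20 chromosomes. Chromosome 11 held the most, 31 peaks or 25.4 per 100 Mb, and chromosome X had 3, or 1.75 per 100 Mb. The whole OLG list was spread alike, with its most peaks, 153, on chromosome 11 and its fewest, 11, on X. Members were 20.3% of the OLG peaks on chromosome 11 and 27.3% of those on X, against 321 of 1752 in all.

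Few of these peaks stood beside an OPC peak. The nearest OPC peak lay at a median of 83476 bp, centre to centre (quartiles 27434 and 237028 bp), and the rule used overlap with that list, so that these distances are a description with no test. Within 1 kb of an OPC peak were 10 peaks (3.12%), within 10 kb 33 (10.3%, 7.18 to 14.1%), within 50 kb 118 (36.8%) and within 100 kb 177 (55.1%), while 35 (10.9%) lay over 500 kb from any. OLG-only gene-body and promoter peaks had medians of 81420 and 98305 bp. A larger share of them than of the intergenic ones had an OPC peak close by, at 5.75% of gene-body and 11.6% of promoter peaks within 1 kb, and 15% and 18.7% within 10 kb. The nearest OPC peak shared the nearest gene in 139 of 321 cases (43.3%). That share was not computed for the other classes, so it is a description and shows no link between the sites.

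**Figure D2:**
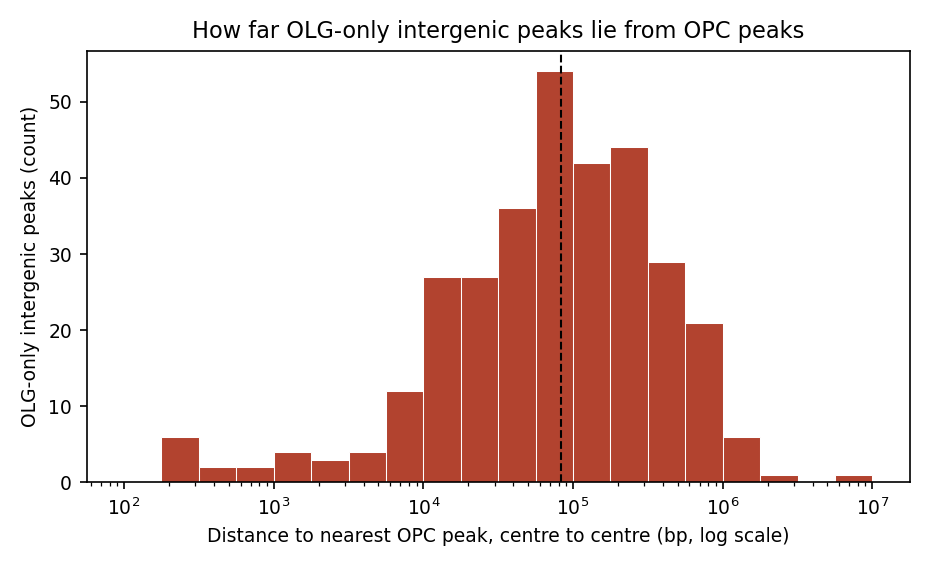
Number of OLG-only intergenic peaks by distance to the nearest OPC peak (bp, centre to centre, log axis). The dashed line is the median, 83476 bp, and 10 peaks lie within 1 kb.

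The closest to an OPC peak was the one near Zmiz1, a transcriptional coregulator, with centres 220 bp apart and 5 bases between the peaks' edges. The OLG peak had 1 CpG and 45% GC in its 200 bp window and no repeat-masked base. Its OPC neighbour had 4 CpG, 54% GC and 36% masked bases. Next came peaks near Sez6l, a neuronal membrane protein, with centres 253 bp apart, Sall1, a zinc finger repressor, at 279 bp, Tob1, an antiproliferative protein, at 289 bp, and Ceacam9, a cell adhesion family member, at 289 bp. At the other side of the overlap rule, the intergenic OLG peaks left out with the fewest shared bases were near Dhx15 (19 bases), Arhgef10l (36) and Ptpn1 (41). At the far end, named after the values were seen, the peak near Ap1s2 on chromosome X was 8584367 bp from any OPC peak, that near Pawr 2489635 bp and that near Adcyap1 1282085 bp. Of the 33 within 10 kb, the OPC peak was intergenic in 22, at a promoter in 9 and in a gene body in 2, and for 7 of the 33 that nearest OPC peak held a TCAT tract.

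TCAT tracts were rare in these peaks. They were in 6 of 321 OLG-only intergenic peaks (1.87%, 0.689 to 4.02%), against 180 of 1316 OPC-only intergenic peaks (13.7%), with an odds ratio of 0.12 and an interval of 0.0432 to 0.271. The two-sided Fisher's exact test gave an adjusted p of 2.00e-11 over the 3 classes compared. The requirement that no base be shared bears on this value, since it takes out the shared peaks, in which tracts are frequent, and these are a larger part of the shorter OLG list. With them kept, an alternative chosen after seeing the data, a tract was in 36 of 367 intergenic OLG peaks (9.81%) and 215 of 1362 intergenic OPC peaks (15.8%), with an odds ratio of 0.58 and an interval of 0.388 to 0.849 (Fisher's exact p = 0.00342, with the shared sites counted in both lists). OLG-only gene-body peaks had a like share, 12 of 487 or 2.46% (Fisher's exact adjusted p = 0.635). The interval of that odds ratio, 0.23 to 2.2 around 0.754, allows a difference in either direction. OLG-only promoter peaks had fewer, 2 of 690 or 0.29% (Fisher's exact adjusted p = 0.0223, with an odds ratio of 6.54 and a wide interval, 1.16 to 66.6). The 46 intergenic OLG peaks shared with the OPC list held a tract in 30 cases (65.2%, 49.8 to 78.6%). Base composition moves with the classes, and in windows of 40 to 55% GC alone the tract was in 5 of 219 OLG-only and 113 of 1006 OPC-only intergenic peaks (Fisher's exact adjusted p = 1.96e-05, odds ratio 0.185).

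**Figure D3:**
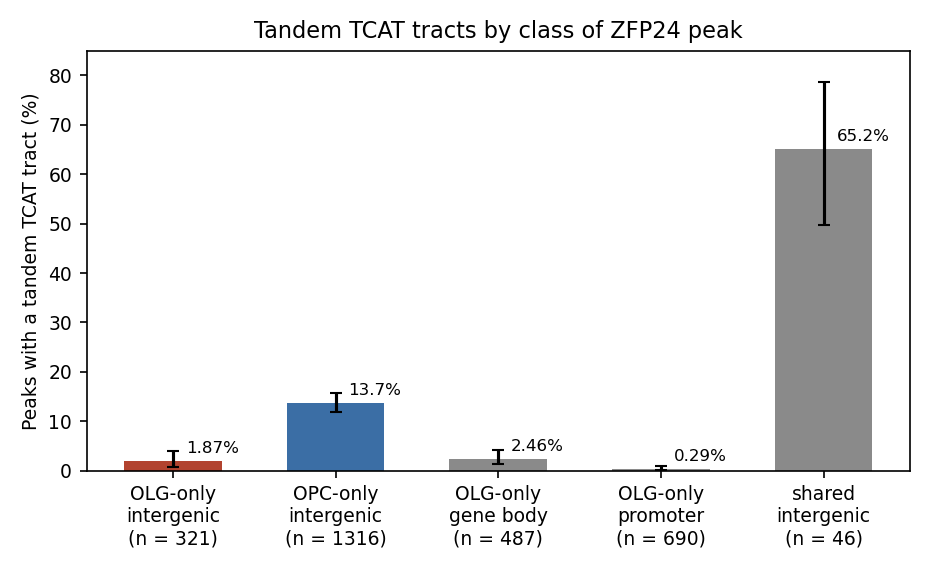
Share of peaks (%) with a tandem TCAT tract of at least 12 bases in the central 200 bp, by class, with exact 95% intervals as error bars. OLG-only intergenic peaks stand at 1.87%, OPC-only intergenic peaks at 13.7% and shared intergenic peaks at 65.2%.

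The few tracts stood at the peaks more often than beside them. They were in 6 of the 321 central windows, against 0 of the windows 2 kb to the right of the same peaks (exact McNemar test, two-sided, p = 0.0312). The test rests on 6 peaks: with windows to the left, 6 against 1, the exact McNemar p was 0.125, with tracts of at least 16 bases, 5 against 0, it was 0.0625, and with at least 8 bases, 16 against 9, it was 0.21. In windows of 400 bp, 13 peaks and 0 flanks held a tract (exact McNemar p = 2.44e-04). The longest was the 40-base tract upstream of Tipin, with its middle 2 bp from the peak centre, followed by 28 bases at Ptk2, 25 at Mtmr3, 19 at C1galt1c1, and 15 at Rtl1. The Rtl1 tract lies inside Meg3, the maternally expressed non-coding RNA of that imprinted locus, and at 61 bp was the farthest from its peak's centre. An OPC peak lay 3609 bp from the Tipin peak and 9118 bp from the Rtl1 peak, while the Ptk2, Mtmr3 and C1galt1c1 peaks were 55310 bp or more from one.

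GC content and CpG lay above those of OPC-only intergenic peaks and under those of promoter peaks, as described here with no test. The median GC content was 51% in the OLG-only intergenic peaks (quartiles 46.5 and 56%), against 48% in the OPC-only intergenic peaks and 46% in the flanks; OLG-only promoter peaks were at 68.5%. At least 10 CpG stood in the 200 bp of 40 OLG-only intergenic peaks (12.5%, 9.05 to 16.6%), against 84 OPC-only intergenic peaks (6.38%) and 11 windows 2 kb to the right (3.43%). Of these 40 peaks, 16 were within 1 kb of a start of some gene type, against 19 of the 281 with fewer CpG. The richest were near Dnttip2 (33 CpG, 8 bp from the start of the lincRNA gene Gm40190), Csrp1 (30), Cdkn1c (29), Ppara (28), Dusp6 and Mogat2 (26 each). The Csrp1 peak was 51 bp from the start of the non-coding gene Gm38399. A second annotation, RefSeq, placed a coding start of Nav1 267 bp from that peak. Such peaks count as intergenic because the rule looked only at the protein-coding genes of a single annotation, GENCODE.

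**Figure D4:**
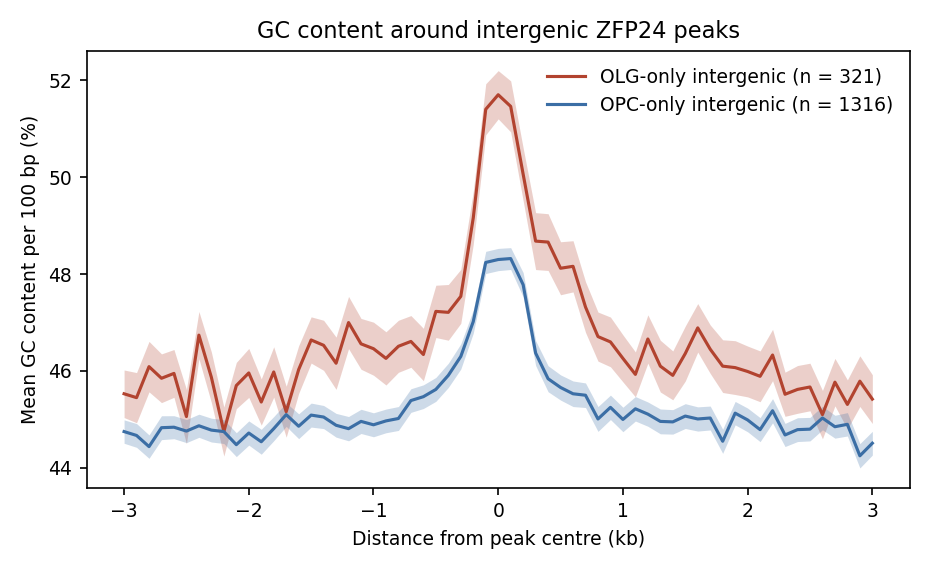
Mean GC content (%) in 100 bp bins by distance from the peak centre (kb), for OLG-only intergenic peaks (red) and OPC-only intergenic peaks (blue); bands are the mean ± SD divided by the square root of the number of peaks. Both rise at the centre, to 51.7% in the OLG-only and 48.3% in the OPC-only peaks.

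Of 15 short motifs searched on both strands, the GC box and the TCAT pair set the OLG-only intergenic peaks apart from the OPC-only ones, 2 of 15 or 13.3%. GGGCGG, the GC box bound by Sp-family factors, was in 28 OLG-only peaks (8.72%), against 52 OPC-only peaks (3.95%). Its odds ratio was 2.32, with an interval of 1.39 to 3.82 and a Fisher's exact adjusted p of 0.00609. It was in 25% of all OLG peaks. In windows with under 10 CpG it was in 3.56% of OLG-only and 2.44% of OPC-only peaks, which missed the threshold (odds ratio 1.48, 0.637 to 3.15, by the exact test of Fisher, p = 0.302). TCATTCAT, part of the tract above, was in 9 OLG-only (2.8%) and 203 OPC-only intergenic peaks (15.4%; Fisher's exact adjusted p = 1.30e-10, odds ratio 0.158). It was in 6.96% of all OLG peaks. With shared peaks kept it was in 11.7% of intergenic OLG and 17.7% of intergenic OPC peaks (odds ratio 0.617).

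Against the windows 2 kb to the right of the same peaks, 0 of 15 motifs (0%) passed the exact McNemar test with Benjamini-Hochberg adjustment, and 5 had an unadjusted p under 0.05. Against those to the left, 1 passed, the GC box GGGCGG. The ETS motif CCGGAAG was in 10 peaks (3.12%) and 1 flank (0.312%), with an exact McNemar adjusted p of 0.144. The OLIG-type E-box CAGATG, a form of the E-box CANNTG, was in 15.3% of peaks and 16.8% of flanks, and the SOX motif ACAAAG in 15% and 18.4%. AGGTCA, a core element bound by thyroid hormone receptors, which triiodothyronine activates, was in 13.7% of peaks and 9.66% of flanks (exact McNemar adjusted p = 0.266). Of 8014 words of 7 bases, searched after the motif results were seen, 0 (0%) passed the adjusted exact McNemar test. An unadjusted p under 0.05 was found for 372, or 4.64%. The lowest adjusted p, 0.0516 by the exact McNemar test, just missed the threshold. It belonged to words of A and T that were rarer in peaks than in flanks: AAAAATA (7 against 36), AAAATAA (11 against 43) and AAAAAAT (6 against 30). A match is a string of letters and not a shown binding site.

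Few peaks lay in repeated sequence. The median share of repeat-masked bases was 11% in OLG-only and 11.5% in OPC-only intergenic peaks, against 21.5% in the windows 2 kb to the right and 16.5% in those to the left. Over 50% of the bases were masked in 37 OLG-only intergenic peaks (11.5%), against 164 OPC-only intergenic peaks (12.5%), 78 right-hand windows (24.3%) and 74 left-hand windows (23.1%). For 306 peaks (95.3%) the genome had no other match of at least 90% identity over 150 bp. Exceptions were the peaks near Cavin3, with 15670 other matches, Fa2h, with 241, and Agtr1b, with 158. Reads from such places map to many sites, and no source used here says how the authors treated them.

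Non-coding genes held 55 of the OLG-only intergenic peaks (17.1%) and 235 of the OPC-only ones (17.9%); of the 55, 47 were in lncRNA genes and 6 in pseudogenes. RefSeq placed a coding start within 1 kb of 6 of the 321. By the GENCODE starts their nearest genes were Csrp1, Rph3al, Xirp2, Rprd2, Sirt4 and Tln2. The RefSeq start need not be of the same gene, and at the Csrp1 peak it was that of Nav1. RefSeq functional elements overlapped 3 peaks (0.935%), against 13 OPC-only intergenic peaks (0.988%). One of them, 61583 bp from Sulf2, a heparan sulphate sulphatase, is in the VISTA enhancer mm1515, active in neural tube and hindbrain of transgenic embryos. Another, 35606 bp from Hdhd5, is in an enhancer described in T cells.

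Within 100 kb of a protein-coding start, these peaks reached 821 of 21644 genes, or 3.79%. A gene so reached need not be the nearest gene of the peak. Among the 12 gene lists used, a share near that value is no result about a list, and with 16 to 50 genes a list 1 gene moves its share widely. Of 45 lineage regulators, 3 had a peak: Sox2, a factor of neural progenitors, at 8124 bp upstream, Nkx6-1, a homeodomain factor of ventral progenitors, at 17113 bp, and Olig2, the basic helix-loop-helix factor that specifies the lineage. The Sox2 peak, printed above, had 17 CpG and an OPC peak at 8735 bp, while the Nkx6-1 peak had none nearer than 849118 bp. Peaks whose nearest gene was Chd7, a chromatin remodeller, Tcf7l2, a Wnt effector of oligodendrocyte differentiation, and Id2, an inhibitor of that differentiation, lay farther, at 160478, 167106 and 151376 bp.

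Of 40 myelin genes, 3 had a peak. Fa2h, which makes the hydroxylated fatty acids of myelin lipids, had one 5638 bp upstream, with 1 CpG, and it is the peak with 241 other matches. Josd2, a deubiquitinase, was 39876 bp from a peak that had another gene, Lrrc4b, nearer. Progenitor markers had 3 of 24: Cacng4, an AMPA receptor subunit partner, at 18587 bp, Olig2, and Nnat, a membrane proteolipid, at 87255 bp. The Nnat peak had another gene, Src, nearer. Elovl1, a very long chain fatty acid elongase, was the 1 of 40 cholesterol and lipid genes, at 9043 bp, from the peak nearest Cdc20.

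Of 40 genes of growth factor, PI3K and mTOR signalling, 5 had a peak, among them Dusp6, a phosphatase of ERK, at 1558 bp and with 26 CpG, Fgfr1, an FGF receptor, at 16928 bp, and Map2k1, the kinase of ERK, at 24407 bp. The Map2k1 peak is the TCAT tract peak nearest to Tipin. Of 50 Notch, Wnt and BMP genes, 4 had a peak: the ligand Bmp7 at 6805 bp, the receptor Fzd7 at 22963 bp, the receptor Bmpr2 at 33510 bp and the ligand Wnt7b at 78206 bp. The Wnt7b peak had another gene, Ppara, nearer. Cell cycle genes had 3 of 34, the inhibitor Cdkn1c at 15589 bp, Aurka at 50184 bp and Ccnb1 at 61003 bp. The Aurka and Ccnb1 peaks had other genes nearer, Fam210b and Slc30a5.

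Lists for other cell types ran both ways, on few genes. Neuronal markers had 0 of 24 and astrocyte markers 0 of 17. Microglial markers had 2 of 16, Tmem119 at 13745 bp and Sall1 at 17438 bp, and vascular markers 1 of 18, Tie1 at 51011 bp. The Tie1 peak is the one nearest Cdc20 that was also counted for Elovl1. Cytoskeleton genes had 1 of 38, Actg1 at 98946 bp from a peak nearest Tspan10. For comparison, OPC-only intergenic peaks reached 2247 genes, or 10.4%, from 1316 peaks. They reached 11 of 24 progenitor markers (45.8%), 7 of 40 growth factor, PI3K and mTOR genes (17.5%) and 1 of 16 microglial markers (6.25%). Also over 10.4% were Notch, Wnt and BMP genes (26%), cytoskeleton (23.7%), cell cycle (23.5%), lineage regulators (22.2%) and astrocyte markers (17.6%). Under it were lipid (10%), myelin (7.5%), vascular (5.56%) and neuronal genes (4.17%). Shares of progenitor markers, lineage regulators and Notch, Wnt and BMP genes above that of all genes were thus not particular to the OLG-only peaks.

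**Figure D5:**
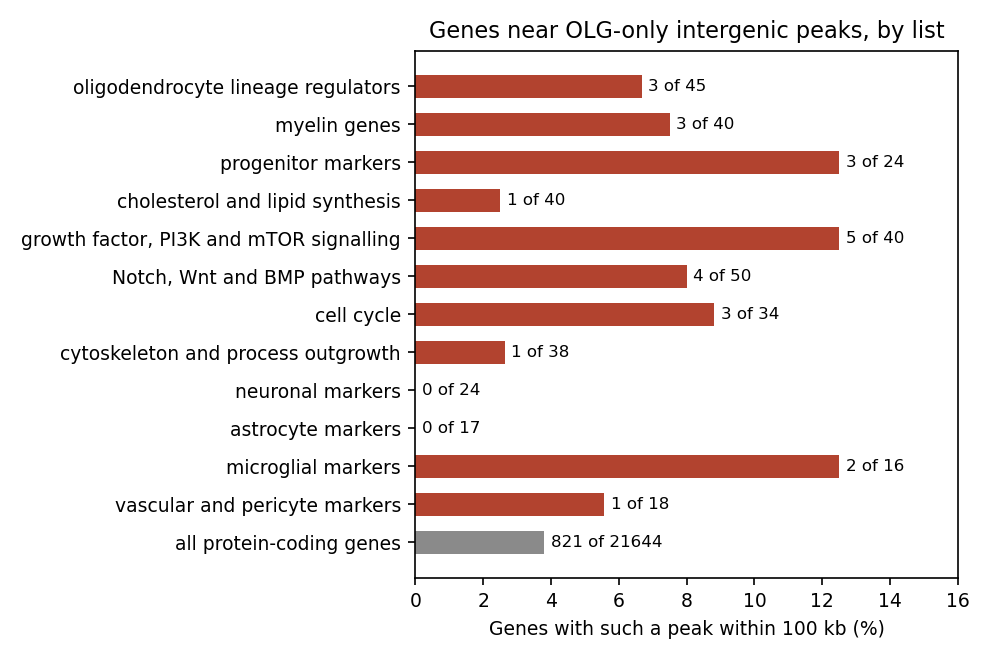
Share of genes (%) with an OLG-only intergenic peak within 100 kb of a protein-coding start, for 12 gene lists (red) and all 21644 genes (grey, 3.79%). Labels give genes with a peak of genes in the list; progenitor markers (3 of 24), growth factor genes (5 of 40) and microglial markers (2 of 16) are highest and rest on few genes.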

How the data were processed

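The deposited files were 2 peak lists, 1 for OLG and 1 for OPC, giving positions (chromosome, start and end) and no score, fold or count. The build was mm10, and the submitters' processing notes name HOMER 4.8.3 and BWA without a version. No source used here states the peak-calling options. All OLG peaks were 221 bp and all OPC peaks 209 bp wide. The depth per sample is unknown.

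Positions are 1-based. Genes came from GENCODE M21 basic and sequences, enhancers and further starts from RefSeq (GRCm38.p6). Windows were 200 bp at the centre, flanks 2 kb away. Shares were compared with two-sided Fisher's exact tests between classes and exact McNemar tests against flanks, with Benjamini-Hochberg adjustment over motifs or classes (threshold 0.05). The code was tested on simulated data. Python 3.11.15, numpy 2.4.6, scipy 1.17.1, pysam 0.24.0, matplotlib 3.10.9 and BLAST 2.17.0 were used. Named peaks were those closest to and farthest from starts, closest to OPC peaks, with the longest tracts, in close pairs, with the most CpG, or nearest to list genes within 100 kb. Peaks in RefSeq elements or near RefSeq starts, in many copies, farthest from OPC peaks, or near Chd7, Tcf7l2 and Id2 were named after values were seen. A few named peaks and sequences are not reported here. The members and gene lists were chosen with earlier results of these data known.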

Additional observations from a re-analysis of the deposited data

How the results depend on the processing

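The number of peaks was between 266 and 311 under the 5 other rules tried, against 321. The lower TCAT share than in OPC-only intergenic peaks kept its direction and call under 4 other settings and 1 chosen after seeing the data (40 to 55% GC), with odds ratios of 0.117 to 0.248. With shared peaks kept (likewise chosen after seeing the data) it was 0.58 (Fisher's exact p = 0.00342). Against flanks, the tract share missed the threshold with tracts of at least 8 bases (4.98%) or 16 bases (1.56%) and with left flanks (1.87%). It passed under the other 3 settings, on 6 peaks (flanks 5 kb right), 8 (whole peaks) and 13 (400 bp windows), each against 0 flanks. The main setting rests on 6 peaks. The odds ratio for lying over 50 kb from a start, a description, was 0.603, against 0.553 at 20 kb and 0.499 at 100 kb. With starts of every gene type it was 0.705 (interval 0.469 to 1.04). With left flanks 1 motif passed, GGGCGG. The GC box odds ratio was 1.48 in windows with under 10 CpG, against 2.32 in all, an alternative chosen after seeing the data, as was the search of all 7-base words. The share within reach of an OPC peak was 10.3% at 10 kb, 36.8% at 50 kb and 55.1% at 100 kb by its own construction. Median GC was 50.2 to 51%. For the other moves the cause was not tested.

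No paired analysis was possible because each group had 1 library, and for the same reason none was left out in turn. The setting by peak score was not run, since the lists hold no score. Depth and the calling threshold of each list are unknown, and a site absent from OPC and one under the OPC threshold cannot be told apart. Signal in null cells was not analysed here.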

Other observations

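Among the nearest genes were transcription factors of development, named here after the values were seen. Genes of such families were 22 of 309 nearest genes (7.12%) and 37 of the 1079 nearest to OPC-only intergenic peaks (3.43%). Of all 21644 protein-coding genes they were 217 (1%). The families were not fixed in advance, so these shares are a description with no test. Those near OLG-only peaks include Sox1, a neural progenitor factor, Pou3f2 and Isl1, neuronal factors, Foxd3, a neural crest factor, and Zic1, a cerebellar factor. Pou3f2 had peaks 10404 and 1653 bp from a start, and Tshz3, a zinc finger homeobox gene, had 1 at 407302 bp and 1 at 1686 bp. The Sox1 peak, 10076 bp upstream, had 19 CpG and 66.5% GC. The Foxd3, Isl1 and Zic1 peaks lay 46757, 197123 and 279715 bp away.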
